A study of Mus musculus with 8 samples.

Results

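Among the genes measured in mouse retinal organoids, 5 had lower RNA levels than the untreated condition at 1, 8 and 24 h of METTL3 depletion alike. They are Bbs10, Tmem126b, Jrk and Jrkl, which encode proteins, and B230354K17Rik, a long non-coding RNA. They were chosen from these same data, because both their FPKM (a fragment count divided by transcript length and library depth) and their estimated counts were at least 1.5-fold below 0 h at each time. The falls themselves are therefore given as a description, without a test. Of 11021 genes with a unique name and at least 1 FPKM in a condition of every table, 57 were at least 1.5-fold lower in FPKM at all 3 times, and 29 were so in estimated counts too. At single times that FPKM limit alone was passed downward by 1.48%, 2.89% and 4.98% of tested genes at 1, 8 and 24 h, a background beside which nothing is read from the 5, since they were chosen by it. Of those 29, the 5 genes are the ones that also had separated intervals at each time and more than 3 estimated counts. AC158974.1 and Gm30085 met the first conditions with at most 2.17 and 0.470 counts and were set aside.

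All groups were organoids of 1 mouse line, Rx:GFP, which reports the retinal gene Rx (Rax) and has the FKBP12F36V-HA tag at the C-terminal end of both endogenous Mettl3 alleles, so the untreated condition carries the tag as well. The tag makes METTL3 a target of dTAG-13, a small molecule that brings the tagged protein to a ubiquitin ligase for degradation. The compound was used at 125 nM for 1, 8 or 24 h, and 0 h was labelled as not treated. Treatment took place on days 5 and 6 of differentiation, and all cells were collected together. Each of the 4 groups had 2 replicates of polyadenylated RNA, prepared in separate rounds of library making, and nothing in the labels says that they came from separate cultures. The deposited tables hold 1 value for both replicates together, so the error given with each value is the interval deposited with it, and no spread between replicates can be shown.

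METTL3 is the catalytic subunit of the complex that writes N6-methyladenosine (m6A) on messenger RNA, mostly in long exons and near stop codons, and the mark often shortens the life of the RNA. BBS10 is a chaperonin-like protein that, with BBS12 and MKKS, helps to assemble the BBSome, a complex that moves membrane proteins in and out of cilia. Loss of these genes causes Bardet-Biedl syndrome, in which photoreceptors degenerate. TMEM126B is a mitochondrial inner membrane protein needed to build respiratory complex I. JRK and JRKL descend from a transposase of the pogo family and have a DNA-binding region like that of the centromere protein CENP-B. B230354K17Rik has no function known here.

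The sequences before the start sites are shown for the 3 genes for which the RefSeq table gave usable letters. Of the tested neighbours compared further on, only Cdc5l, beside B230354K17Rik, borders a printed stretch. They are written 5′ to 3′ in the direction of the gene and stop at the first annotated exon (GRCm38.p6). The capitals mark, on either strand, CTTCCG (the core bound by ETS factors) in Bbs10 and GGGCGG (the GC box) in Tmem126b. In B230354K17Rik they mark the stretches of 8 or more bases that equal their own reverse complement, TCTCGCGAGA and TGACGTCA (the cAMP response element). The motifs were chosen after the sequences were seen.
Bbs10, chr10:111298429-111298678, plus strand: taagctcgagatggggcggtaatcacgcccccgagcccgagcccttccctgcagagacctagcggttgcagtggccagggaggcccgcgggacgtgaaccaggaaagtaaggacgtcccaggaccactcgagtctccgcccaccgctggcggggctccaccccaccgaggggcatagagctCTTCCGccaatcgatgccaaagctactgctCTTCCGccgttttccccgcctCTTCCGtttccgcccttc
Tmem126b, chr7:90476002-90476245, minus strand: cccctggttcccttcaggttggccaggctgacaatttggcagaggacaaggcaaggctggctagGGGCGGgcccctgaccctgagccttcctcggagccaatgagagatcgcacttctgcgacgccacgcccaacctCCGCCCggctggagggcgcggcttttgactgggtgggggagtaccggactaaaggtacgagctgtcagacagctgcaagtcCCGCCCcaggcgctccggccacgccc
B230354K17Rik, chr17:45433738-45433830, plus strand: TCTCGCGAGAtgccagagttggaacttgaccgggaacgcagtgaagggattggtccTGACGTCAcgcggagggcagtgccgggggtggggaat
The stretch of Bbs10 held 3 copies of CTTCCG, and 13.6% of 32841 RefSeq start sites have at least 1 in the same 250 bases. Tmem126b had 3 GC boxes in 244 bases, against at least 1 in 31.9% of start sites. Bbs10 had 3 GC boxes as well, left in lower case, against at least 1 in 32.7%. The 93 bases of B230354K17Rik held 1 copy each of TCTCGCGAGA and TGACGTCA, which occur in 0.301% and 1.12% of stretches of that length and place. Bbs10 had 4 self-complementary stretches of 8 bases, none of them shared with B230354K17Rik, and Tmem126b had 0. CACGTG, the E-box, was in none of the 3. These matches describe letters and do not show binding.

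Bbs10 (chromosome 10, 111298679 to 111301727, plus strand) had the lowest remaining level of the 5 genes at 1 h. In the 1 h table untreated organoids had 3.67 FPKM (deposited interval 2.70 to 4.63), and treated ones 1.52 (1.04 to 2.01). The 8 h table gave 3.71 (2.82 to 4.61) untreated against 1.66 (1.18 to 2.14), and that of 24 h 3.72 (2.82 to 4.63) against 1.92 (1.37 to 2.46). Every treated interval lay below its untreated one. The remaining level was 41.5%, 44.7% and 51.5% of 0 h at 1, 8 and 24 h, with log2 ratios of -1.22, -1.12 and -0.92. The treated values thus stood in the order of the times, but their intervals overlap one another. Bbs10 rested on the fewest estimated counts of the 5 genes, 307 untreated and 128 after 1 h.

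Tmem126b (chromosome 7, 90467438 to 90476001, minus strand) kept nearly the same lower level throughout. Untreated organoids of the 1 h table had an FPKM of 11.2 (8.66 to 13.8), against 6.76 (5.10 to 8.42) with dTAG-13. The 8 h values were 11.4 (8.97 to 13.8) untreated against 6.82 (5.29 to 8.35), and those of the 24 h pair were 11.4 (8.97 to 13.9) against 6.75 (5.21 to 8.30). This was 60.2%, 60.0% and 59.1% of 0 h, a span of 1.04 percentage points across the treated times. The log2 ratios were -0.72, -0.73 and -0.75. The gap between the intervals was narrow at 1 h, 2.15% of the untreated value.

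Jrk (chromosome 15, 74702301 to 74709535, minus strand) was lowest at 24 h. Untreated it had 4.24 FPKM (3.28 to 5.20), against 2.52 (1.91 to 3.13) after 1 h. The 8 h pair was 4.29 (3.40 to 5.19) against 2.27 (1.75 to 2.78), and the 24 h pair 4.31 (3.40 to 5.21) against 2.11 (1.62 to 2.60). These are 59.4%, 52.8% and 49.0% of the untreated level. The log2 ratios were -0.73, -0.89 and -0.99, and the treated intervals overlap one another. Jrkl (chromosome 9, 13242607 to 13245829, minus strand), its relative, was lowest at 1 h. Its pair there was 5.28 (4.02 to 6.53) untreated against 2.87 (2.11 to 3.63). The 8 h pair was 5.36 (4.18 to 6.54) against 3.25 (2.48 to 4.02), and the 24 h pair 5.38 (4.18 to 6.58) against 3.29 (2.50 to 4.09). These are 54.5%, 60.6% and 61.2%, with log2 ratios of -0.85, -0.70 and -0.69. Jrkl at 24 h was the closest of all 15 values to the limits of the choice, with intervals 1.74% of the untreated value apart and a 1.56-fold difference in counts. With intervals of 2 deposited standard deviations around the counts, it was the only one of the 15 that was not separated (log2 ratio -0.64 in counts). With 1 FPKM added to both values in place of 0.1, Jrkl missed the 1.5-fold limit at 8 h (-0.58) and 24 h (-0.57), and Jrk at 1 h (-0.57). The locus used for Jrkl began at 13241394 in the 8 and 24 h tables and at 13242607 in the 1 h table. It was thus longer at its 3′ end at 8 and 24 h. That of Jrk ran to 74710374 at all times, 839 bases beyond the annotated coordinates.

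B230354K17Rik (chromosome 17, 45433598 to 45442544, plus strand) had the lowest remaining level of the 5 genes at 8 and 24 h. Its 1 h pair was 10.1 FPKM (7.92 to 12.3) untreated against 6.04 (4.67 to 7.42). At 8 h the pair was 10.3 (8.16 to 12.3) against 3.95 (3.03 to 4.88), and at 24 h 10.3 (8.18 to 12.4) against 4.33 (3.37 to 5.29). The remaining level was 59.7%, 38.6% and 42.1%, and the log2 ratios were -0.74, -1.35 and -1.23. Its span across the treated times, 21.1 percentage points, was the widest of the 5 genes, although the 1 h and 8 h intervals still overlap. It also had the most estimated counts, 2102 untreated and 1238 after 1 h. The locus used for B230354K17Rik ran from 45433827 to 45443870 at all times. It thus began 229 bases after the annotated start and ended 1326 bases past the annotated end.

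**Figure D1:**
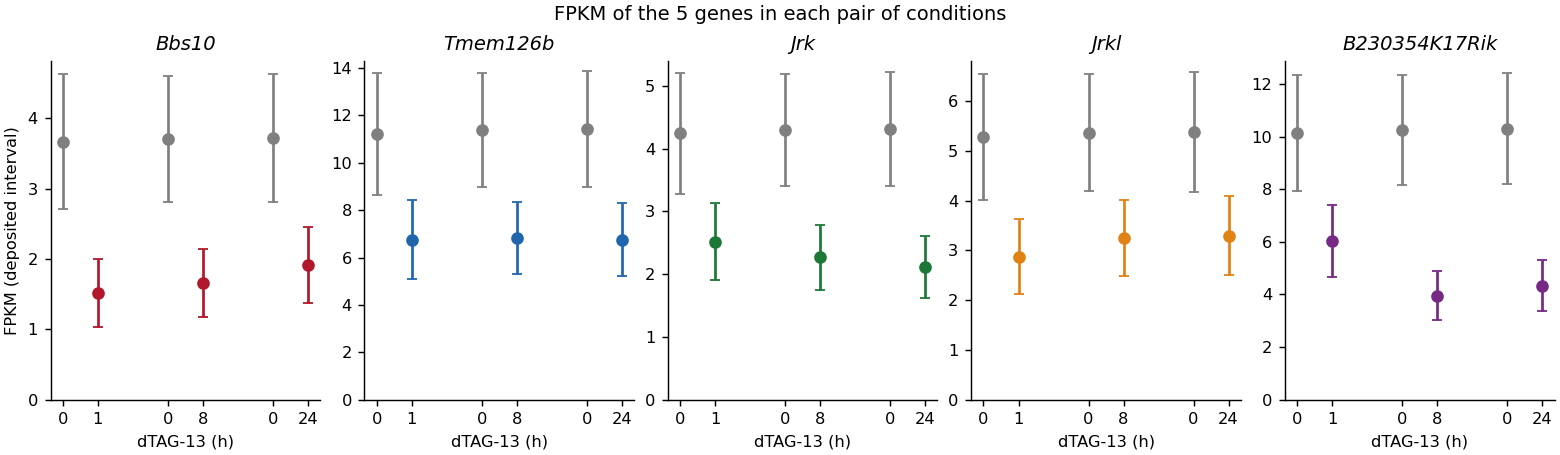
FPKM of each gene (vertical axis, from 0) in the 3 pairs of conditions, 0 h in grey and the treated time in colour, with the deposited interval as the bar. In each pair the treated interval lies below the 0 h interval. The gap is smallest for Jrkl at 24 h (1.74% of 0 h) and largest for B230354K17Rik at 8 h (32.0%).

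All of these comparisons use the same 0 h libraries, so the 3 falls of a gene are not independent of one another. The 0 h value of each gene differed by at most 1.02-fold between the tables. The tables were normalized separately, which also limits the comparison of treated levels across times. The coefficient of variation deposited for the count at 0 h in the 1 h table was 13.1% for Bbs10, against a median of 13.2% for 800 tested genes of like count. For B230354K17Rik it was 10.6%, against 10.5%. These variances were deposited for the combined replicates, so the likeness is no check of how either gene varied between replicates. In units of the deposited standard deviation of the difference in counts, the falls ranged from 2.89 to 3.97 at 1 h, 2.90 to 5.91 at 8 h and 2.65 to 5.23 at 24 h.

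Calling a gene took a ratio of 1.5-fold or more, after 0.1 FPKM was added to both values, and deposited intervals that did not overlap. That rule called 27 of 11207 tested genes lower after 1 h (0.241%), 91 of 11349 after 8 h (0.802%) and 181 of 11350 after 24 h (1.59%). All 5 genes were called lower at each time, as their choice required. The place of the 5 among all genes was set by that choice and is given as a description. The share of tested genes with a still lower ratio than Bbs10 came to 0.178%, 0.485% and 1.68% at the 3 times. For B230354K17Rik it came to 0.803%, 0.300% and 0.714%, and for Jrkl to 0.491%, 1.79% and 3.51%.

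**Figure D2:**
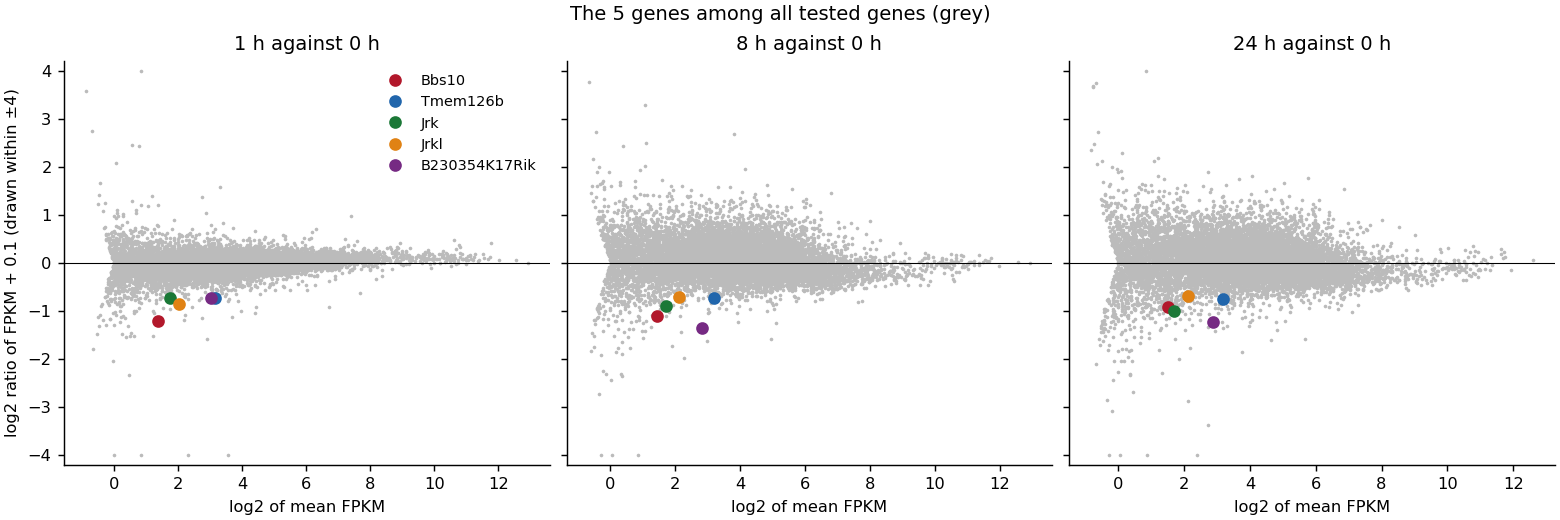
Log2 ratio of FPKM (with 0.1 added, drawn within 4 of 0) against the log2 of mean FPKM for every tested gene (grey dots), with the 5 genes in colour, at 1, 8 and 24 h. The coloured points lie at the lower edge of the grey cloud at 1 h, where 0.241% of genes were called lower, and the cloud is wider at 8 and 24 h.

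Compared per length, the untreated level of the 5 genes was below the middle of the tested genes. In the 24 h table the order at 0 h was Tmem126b (11.4 FPKM), B230354K17Rik (10.3), Jrkl (5.38), Jrk (4.31) and Bbs10 (3.72), against a median of 14.2 FPKM. The intervals of Tmem126b and B230354K17Rik overlap, as do those of Jrkl and Jrk and those of Jrk and Bbs10, while those of B230354K17Rik (8.18 to 12.4) and Jrkl (4.18 to 6.58) do not.

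**Figure D3:**
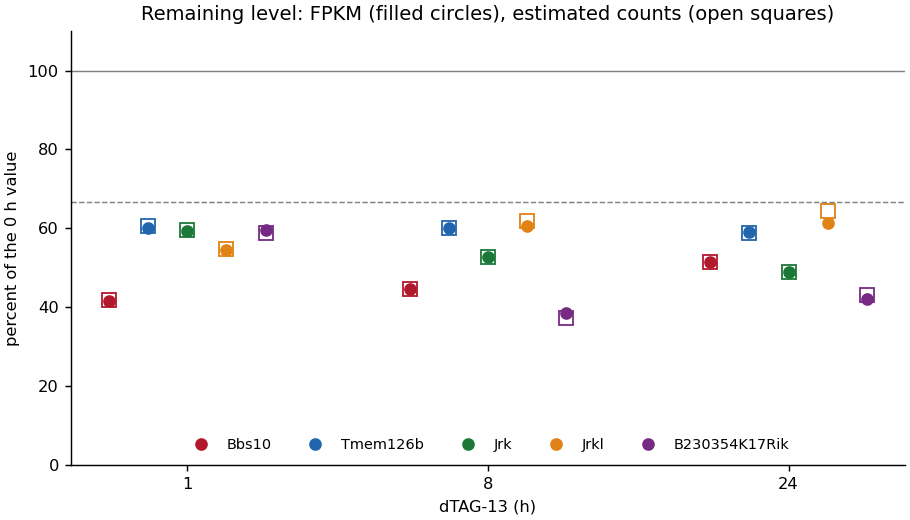
Level at 1, 8 and 24 h as a percent of the 0 h value, from FPKM (filled circles) and estimated counts (open squares). The dashed line is the 1.5-fold limit of the choice. FPKM values run from 38.6% (B230354K17Rik, 8 h) to 61.2% (Jrkl, 24 h), and the highest square is Jrkl at 24 h (64.3%).

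The organoids expressed what the labels say, together with genes of the pluripotent state. All 6 retinal progenitor markers used (Rax, Six3, Six6, Pax6, Lhx2 and Sox2) had at least 1 FPKM at 0 h, and so did all 6 pluripotency markers (Pou5f1, Nanog, Zfp42, Dppa5a, Tdgf1 and Esrrb). The summed FPKM of the retinal list was 105%, 128% and 135% of 0 h at 1, 8 and 24 h, and that of the pluripotency list 108%, 88.4% and 64.5%. The pigment epithelium list stood at 99.8%, 128% and 162%, with Rpe65 and Tyr both at 0 in the 1 h table and 3 of its 5 genes above 1 FPKM. In the 24 h table the neuron list, with 3 genes of 5 in rows of their own, summed to 5.69 FPKM at 0 h. The mesendoderm and neural crest lists summed to 4.60 and 0.753, and the telencephalon list, with 1 gene of 2 in a row of its own, to 20.8. The part of such shifts in the values of the 5 genes was not tested. In bulk RNA, fewer cells of a type and less RNA per cell cannot be told apart. The Mettl3 transcript is no check of the depletion, since the tag acts on the protein. The interval of its FPKM was 10.6 to 28.3 untreated and 8.50 to 25.5 after 24 h, and it was not called at any time.

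Of the chaperonin-like genes, Bbs12, the partner of Bbs10 in BBSome assembly, was called lower at 8 and 24 h. Its 8 h pair was 6.02 FPKM (4.46 to 7.58) untreated against 2.76 (1.82 to 3.69), and its 24 h pair 6.04 (4.47 to 7.62) against 3.47 (2.49 to 4.46). The log2 ratios were -1.10 and -0.78, and the estimated counts went from 663 to 400 and from 657 to 415. In the 1 h table Bbs12 shares a row with Cetn4, which lies at the same locus, and so was not in the test. That row went from 6.94 (5.11 to 8.77) to 3.83 (2.71 to 4.96), with intervals that do not overlap, and from 638 to 343 counts. Mkks, the other chaperonin-like gene, shares its row with AL731706.1 and AL731706.2 in all tables. Its row had log2 ratios of -0.17, 0.48 and 0.41.

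The remaining genes of the Bardet-Biedl list, which holds the BBSome subunits and other genes of the syndrome, were mostly not called. Besides Bbs10, 0 of 17 tested genes were called lower at 1 h, and 1 of 18 (Bbs12) at 8 h and at 24 h. The shares over all tested genes were 0.241%, 0.802% and 1.59%. Trim32, a ubiquitin ligase, was called higher at 8 h, where 20.3 FPKM (16.3 to 24.3) stood against 33.3 (26.6 to 40.1) with dTAG-13. Its log2 ratios were 0.71 then and 0.50 at 24 h, without a call. Called higher were 2 tested genes in all at 1 h (0.0178%), 3.84% at 8 h and 4.08% at 24 h. Without Bbs10 the median log2 ratio of the list was -0.04, -0.08 and -0.17 at 1, 8 and 24 h, against -0.00045, 0.01 and 0.01 over all tested genes.

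The CCT chaperonin, the cytosolic folding machine to which BBS10 is related, had 0 called genes of 7 tested at each time. Since only 0.241%, 0.802% and 1.59% of all tested genes were called lower at 1, 8 and 24 h, this says little of 7 genes. Its median log2 ratio was 0.10 at 1 h, and -0.33 and -0.34 at 8 and 24 h. At 24 h its tested genes ranged from Cct3, with -0.44, to Tcp1, with -0.03.

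**Figure D4:**
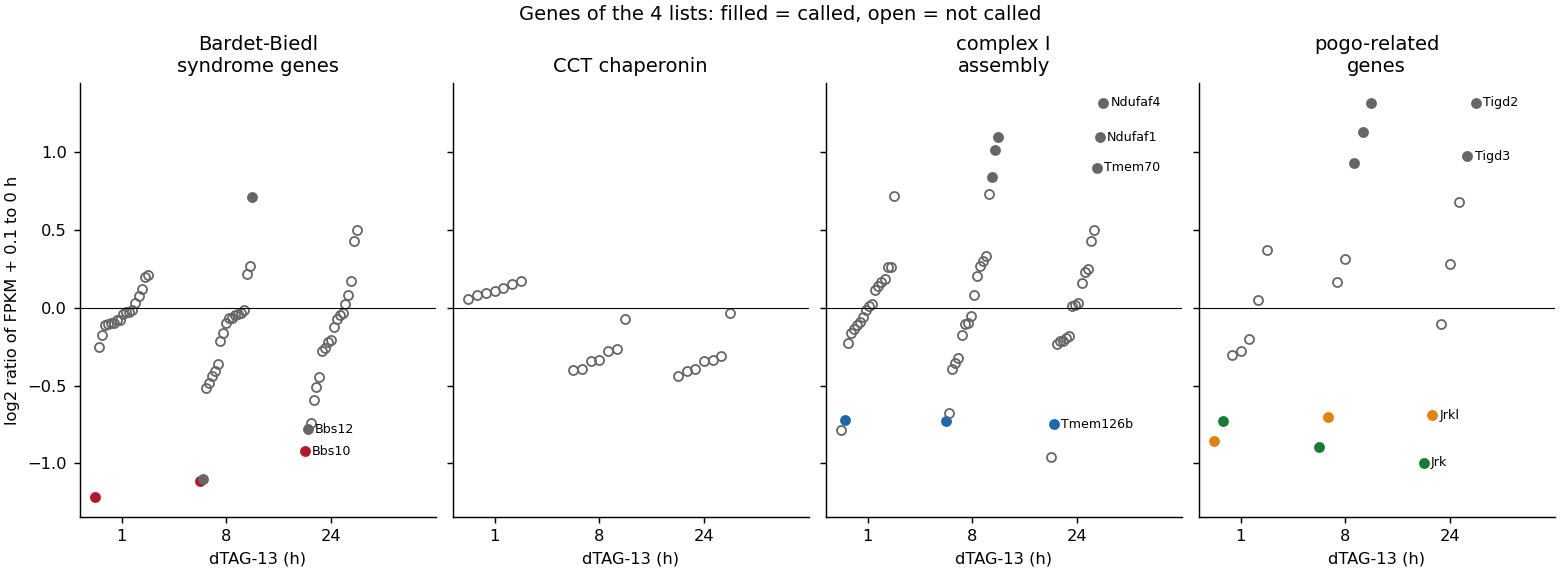
Log2 ratio of FPKM to 0 h for the tested genes of 4 lists at 1, 8 and 24 h, ordered by value within each time, filled where called and open where not. Coloured points are Bbs10, Tmem126b, Jrk and Jrkl. Names mark the genes called at 24 h. In the pogo-related list Jrk (-0.99) and Jrkl (-0.69) lie below 0 at 24 h, while Tigd3 (0.97) and Tigd2 (1.32) lie above.

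Among the genes for the assembly of complex I, Tmem126b was the only one called lower, and 3 others were called higher at 8 and 24 h. Of all tested genes, 0.241%, 0.802% and 1.59% were called lower at 1, 8 and 24 h. Higher calls made up 3.84% at 8 h and 4.08% at 24 h. Ndufaf1, which works in the same assembly complex as Tmem126b, had 17.1 FPKM (12.9 to 21.2) untreated against 34.6 (25.4 to 43.7) in the 8 h table, and 17.1 (12.8 to 21.4) against 36.7 (28.5 to 45.0) in that of 24 h. Its log2 ratios were 0.16, 1.01 and 1.10 at 1, 8 and 24 h. Ndufaf4 had log2 ratios of 0.26, 1.10 and 1.31, and Tmem70 of 0.01, 0.84 and 0.90. None of the 3 was called at 1 h. Tmem186, also of that assembly complex, was lower by about as much as Tmem126b, with log2 ratios of -0.78, -0.68 and -0.96, but was not called. Its intervals were wide, 5.89 to 16.7 at 0 h against 2.35 to 10.7 at 1 h. Ecsit, another partner, had -0.02, -0.05 and -0.19 and was not called. Without Tmem126b the 17 tested genes had medians of 0.01, 0.08 and 0.03. Acad9 shares its row with Gm43079 and was not in the test.

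Jrk and Jrkl, whose direction was set by the choice, were below 0 h at 8 h, where their 5 tested relatives were above it. The pogo-related list holds genes that descend from the same transposase family or, like Cenpb, share its DNA-binding region. Besides Jrk and Jrkl, 5 of its genes were tested, and 0 were called lower at any time. With 0.241%, 0.802% and 1.59% of all tested genes called lower at 1, 8 and 24 h, that 0 says little of so few genes. Called higher were 3.84% of all tested genes at 8 h and 4.08% at 24 h. Tigd2 had 7.52 FPKM (5.92 to 9.12) untreated against 18.8 (15.1 to 22.5) after 8 h, and 7.55 (5.92 to 9.17) against 18.9 (15.1 to 22.7) after 24 h. Its log2 ratios were -0.20, 1.31 and 1.32. Tigd3 was called at both later times as well, with 0.93 and 0.97, and Tigd5 at 8 h, with 1.13. Pogk and Pogz were not called, with 0.16 and 0.31 at 8 h. The 5 relatives had medians of -0.20, 0.93 and 0.68, and all were above 0 at 8 h. At 1 h 3 of the 5 were below 0, and at 24 h 1 was. The row that Cenpb shares with Spef1 had log2 ratios of 0.30, 0.63 and 0.74. The difference between Jrk or Jrkl and these genes was not tested, since each value is pooled over replicates.

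The genes beside the 5 were compared with them. The annotation (GENCODE M21) places 21 genes within 50 kb of 1 of the 5, and 8 of those were tested at all times. Of the 8, 0 were called lower at any time, which with 0.241%, 0.802% and 1.59% of all genes called lower says little of so few genes. Their median log2 ratios were -0.0017, 0.07 and 0.04. The closest case is Cdc5l, a component of the spliceosome, which is transcribed away from B230354K17Rik from a start 139 bases from that of the long non-coding RNA. In GENCODE the first bases of these genes overlap, whereas the RefSeq start of B230354K17Rik lies further on, with the 93 bases printed above in between. Untreated and treated FPKM of Cdc5l were 56.0 and 56.3 in the 1 h table, 56.7 and 54.2 in that of 8 h, and 56.9 and 52.9 in that of 24 h. Its log2 ratios were 0.01, -0.07 and -0.10, against -0.74, -1.35 and -1.23 for B230354K17Rik. GENCODE classes B230354K17Rik as a long non-coding RNA of a bidirectional promoter.

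Osbpl8, a lipid transfer gene that ends 1430 bases before Bbs10, had log2 ratios of -0.01, 0.05 and 0.03. Ccdc82, whose start is 1126 bases from that of Jrkl on the other strand, had -0.07, 0.08 and 0.05. Near Jrk, Arc had -0.17, -0.02 and -0.24, and Them6 had 0.19, 0.24 and 0.10. Near Tmem126b, its relative Tmem126a had 0.26, -0.35 and -0.21 with overlapping intervals, and Crebzf had -0.04, 0.15 and 0.20. Ccdc89 was the only neighbour called, higher at 8 h (1.38) and 24 h (1.12), from FPKM 1.97 to 5.31 and from 1.98 to 4.42. Dlg2, which starts 671 bases from Tmem126b on the other strand, shares a row with Gm45159 at 0.432 FPKM in the 1 h table and was below the limit of the test. That row had log2 ratios of -0.91, -0.86 and -0.75, with intervals that reach 0 and 18.2 untreated counts in the 1 h table.

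**Figure D5:**
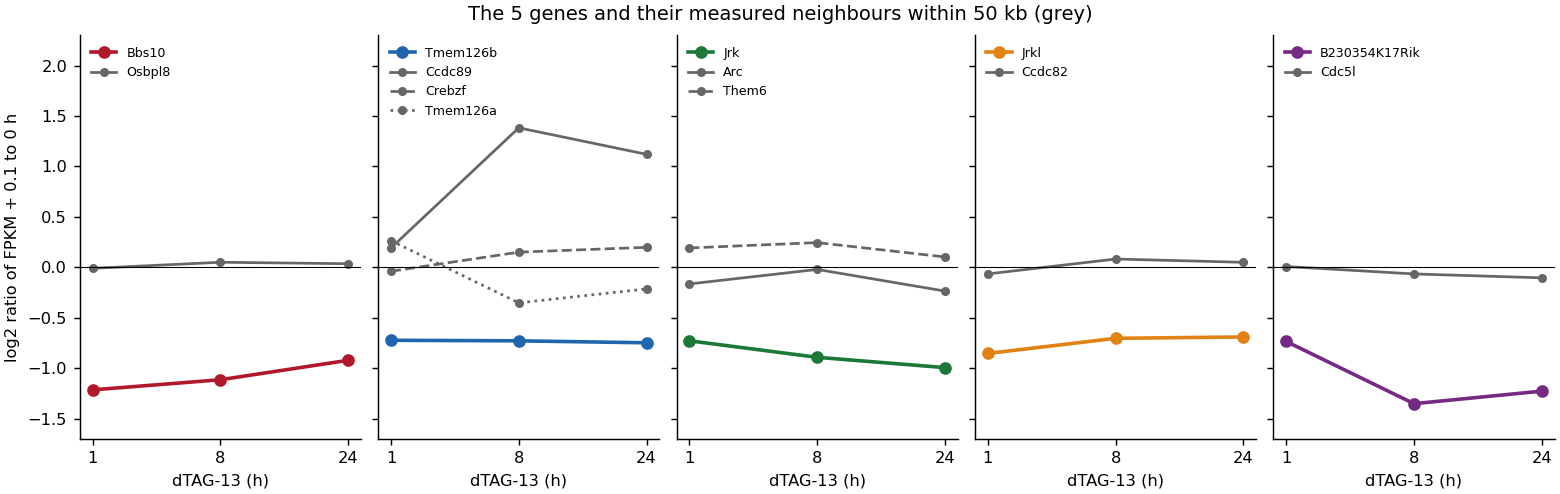
Log2 ratio of FPKM to 0 h at 1, 8 and 24 h for each of the 5 genes (coloured) and for the tested genes within 50 kb (grey). Each coloured line lies below the grey lines of its panel. B230354K17Rik reaches -1.35 at 8 h while Cdc5l, transcribed away from the same region, is at -0.07.

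Overlap with other genes could affect 2 of the values, since the labels do not state whether counting used strand. B230354K17Rik overlaps Spats1 on the other strand, and 19.3% of the 50-base windows of its main transcript also occur in transcripts of other genes (Spats1 and Nfat5). In the 8 h table Spats1 had 0.0711 FPKM untreated and 0.148 treated. Jrk overlaps the antisense gene 4933427E11Rik, with 4.14% of windows shared, and that gene had 0.0466 FPKM untreated and 0.111 after 1 h. Bbs10, Tmem126b and Jrkl shared 0 windows with other genes.

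The 5 genes had fewer exons than the median protein-coding gene and a larger part of the transcript in the longest one. The choice did not use these properties. B230354K17Rik is non-coding, and no median of non-coding genes was taken to set beside it. Jrkl is a single exon of 3223 bases, and the coding sequence of Jrk lies in 1 exon of its 2. Bbs10 has 2 exons, and the longest makes up 91.7% of the transcript. Tmem126b has 5 exons, the longest of 1724 bases, but its longest coding exon has 194 bases, below the median of 272. B230354K17Rik has 3 exons, the longest 69.7% of the transcript. The median of 10663 tested protein-coding genes was 9 exons, with 50.6% of the transcript in the longest. Among the 620 tested genes with 1 coding exon, as in Jrk and Jrkl, calls in both directions made up a larger share than among all tested genes at the later times. At 8 h 19.4% were called higher and 2.90% lower, against 3.84% and 0.802% of all tested genes, and their median log2 ratio was 0.37. At 24 h 20.6% were called higher and 2.74% lower, against 4.08% and 1.59%, and the median was 0.36. At 1 h, 0 of 620 were called higher and 4 lower (0.645%, against 0.241% of all tested genes). Jrk and Jrkl, chosen as lower, are among the 4 and count in the lower shares at 8 and 24 h too. The 436 genes with 2 coding exons, as in Bbs10, had medians of 0.02, 0.33 and 0.33. Of 728 genes with 5 coding exons, as in Tmem126b, 0.549%, 0.687% and 1.24% were called lower at 1, 8 and 24 h. That was 4, 5 and 9 genes, and Tmem126b, chosen as lower, is of this group. Lower calls were more frequent among 253 long non-coding and other non-coding genes, the kind of B230354K17Rik, with 1.58%, 3.95% and 5.53%. Those shares rest on 4, 10 and 14 genes, without a limit on counts, and B230354K17Rik itself was chosen as lower. Of the 253 genes, 0.395% and 0.791% were called higher at 8 and 24 h. Over all tested genes 0.241%, 0.802% and 1.59% were called lower.

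The transcripts held the sequence GGACT, the letters most often methylated by METTL3, at rates on both sides of the median protein-coding gene. The number was 2 in Bbs10, 2 in Tmem126b, 5 in Jrk, 4 in Jrkl and 8 in B230354K17Rik, on the transcript strand. This is 0.729, 0.885, 0.854, 1.24 and 1.63 per kilobase, against a median of 1.05 in tested protein-coding genes, of which 92.2% have at least 1. Methylation was not measured here, so a match is a candidate position only. The last GGACT of the coding sequence (in Bbs10, Jrk and Jrkl) or the first of the transcript (B230354K17Rik) is shown with its surroundings, in capitals, to place these candidates (GRCm38, GENCODE M21 transcripts).
Bbs10, exon 2, chr10:111299735-111299764, plus strand: tgtgcttcccagGGACTtttctatgtactg
Jrk, exon 2, chr15:74706807-74706836, minus strand: ccccagatgatgGGACTgtgccccacttca
Jrkl, exon 1, chr9:13244386-13244415, minus strand: cagcataccaaaGGACTggaaaatgtgact
B230354K17Rik, exon 1, chr17:45433947-45433976, plus strand: ggcgaccgacgaGGACTtcgctgagtcctc
These positions are 1419, 1060 and 317 bases before the end of the coding sequence in Bbs10, Jrk and Jrkl. Both copies in Tmem126b lie after its coding sequence, and none is printed.

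Among the 5 genes the closest pair in time course was Tmem126b and Jrkl, with a distance of 0.145 over the 3 log2 ratios, and the farthest was Jrkl and B230354K17Rik, with 0.850. Ranked by the same distance over the 3 times, the nearest of 10983 other genes to Tmem126b were Zfp607b (0.145), Tmem177 (0.197), which helps to assemble cytochrome c oxidase, and Fv1 (0.212), a restriction gene against retroviruses. Tmem177 was also nearest to Jrkl (0.155), before Agap1 (0.193) and Procr (0.193). For Tmem177 the log2 ratios were -0.78, -0.74 and -0.56. The nearest to Bbs10 were Bmp5 (0.320), Mterf1b (0.335) and Gm38150 (0.412). Mterf1b was called lower at 1 and 8 h, with log2 ratios of -1.32 and -1.43, and had -0.88 at 24 h. The nearest to Jrk were Acrbp (0.151), Mapk15 (0.168) and Creb3l4 (0.207). For B230354K17Rik they were Gm42372 (0.221), called at 8 h (-1.14) and 24 h (-1.18), Gm11940 (0.264), called at 24 h (-1.43), and Samd12 (0.334). The values of these genes share the 0 h libraries with those of the 5, and their ratios below 0 follow from the ranking.

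At the edge of the choice, genes were ordered by their smallest fold over both measures and all times. Among the chosen genes alone, Jrkl was nearest to the 1.5-fold limit with 1.56 and Tmem126b next with 1.65. Some genes that met this limit in both measures but were not chosen lay nearer to it. The nearest of them were Lrmda with 1.513 and Gm40040 with 1.515. Just outside, among genes with at least 10 counts, were Map2k3os with 1.498, at 8 h, and Zfp607b with 1.489, in counts at 1 h, and neither was called at any time. Of the 24 other genes that met the 1.5-fold limit in both measures, 14 were below 2 FPKM at 0 h in all tables, and 10 are protein-coding, or 41.7%, against 97.3% of the genes tested at 24 h. Called lower were 3 of the 24 at 1 h, 9 at 8 h and 10 at 24 h, against 0.241%, 0.802% and 1.59% of all tested genes. AC158974.1 and Gm30085, set aside above for their few counts, are among those called at each time. The 24 had passed the 1.5-fold part of the calling rule beforehand, so nothing is read from these counts. Also of the 24 are Trp53cor1 and Neat1, long non-coding RNAs named here after their values were seen. Trp53cor1 had log2 ratios of -0.63, -2.44 and -2.05 and was called at 8 and 24 h, and Neat1 had -0.63, -0.97 and -0.75 and was called at 8 h.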

How the data were processed

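Polyadenylated RNA of organoids was sequenced in 8 samples, assigned from their titles to 4 groups (0, 1, 8 and 24 h) of 2 replicates. The submitters' processing notes name Cufflinks 2.2.1, Cuffdiff and mm10. Per the file headers, the authors deposited 3 pairs of tables, each of 0 h and 1 treated time, with FPKM and its lower and upper bound, and with estimated counts and their variance. Replicates are combined in 1 column per condition. The strand setting and the level of the interval are not given in the sources used here, and the bounds lie a median of 2.20 to 2.21 deposited standard deviations from the value. The estimated counts of a condition, which are scaled values, sum to between 31361500 and 32562100. The median coefficient of variation of a tested gene's count was 10.4% to 11.3%.

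Rows with a unique single name and status OK were tested when FPKM was at least 1 in a condition. The log2 ratio was that of FPKM + 0.1, which understates changes of low genes. The calling rule gives no p-value. It was tried on simulated data, with changes larger than those of the 5 genes and noise drawn from the deposited variances. That does not show how the rule handles smaller falls or spread between replicates. Rows without a name held 1.03% to 1.11% of the estimated counts and stayed out. Coordinates are those of GENCODE M21 (GRCm38), whose genes overlapped 99.95% of the matched loci in each table. Table starts were read as 0-based. The representative transcript was chosen by APPRIS rank and coding length. Named genes are the 5 genes, called and extreme members (at 24 h) of 4 lists, tested neighbours within 50 kb, the 3 genes of nearest pattern for each, those at the edge of the choice, and named paralogues. Other partners (Ecsit, Tmem186, Pogk, Pogz, Cenpb, Acad9) were named after their values were seen. The retinal list has 6 genes, and 1 further marker first planned for it was left out and is not reported here. The 5 genes and the lists were chosen with earlier results of these data known. The alternatives changed the pseudocount, the filter, the measure, the fold, the intervals, the centring and the set of loci. Python 3.11.15 and pandas 2.3.3 were used.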

Additional observations from a re-analysis of the deposited data

How the results depend on the processing

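No paired analysis was possible because the tables hold 1 column per condition for both replicates, so replicates could neither be blocked nor left out. The log2 ratios of the 5 genes were below 0 in all 60 combinations of gene, time and alternative (pseudocounts of 1 and 0.01 FPKM, estimated counts, centring on the median), from -1.42 to -0.57, and 56 of them were still called. The sign was set by the choice, which required lower FPKM and counts at each time, so it is no support for the falls. Staying called was largely set by the choice as well. The 4 that were not called were Jrk at 1 h (-0.57) and Jrkl at 8 h (-0.58) and 24 h (-0.57) with a pseudocount of 1 FPKM, and Jrkl at 24 h (-0.64) in estimated counts. With a 2-fold limit, 1, 2 and 1 of the 5 genes were called at 1, 8 and 24 h, and with a filter of 5 FPKM 3 at each time, since Bbs10 and Jrk do not reach it. Over all genes, a 2-fold limit gave 15, 31 and 68 lower calls at 1, 8 and 24 h, and 132 and 148 higher calls at 8 and 24 h. Without the intervals there were 166, 328 and 565 lower and 85, 984 and 1040 higher calls, so lower calls made up 66.1% of those at 1 h in place of 93.1%. The 5 FPKM filter gave 57 lower calls at 8 h, and estimated counts gave 278 at 24 h. The 2 higher calls at 1 h became 4 without a filter, 1 with the 5 FPKM filter, 1 in estimated counts and 16 over all loci with status OK, where lower calls were 70.9%. Of 72 list medians, 68 moved by under 0.1. The others, all at 24 h, were the Bardet-Biedl list (-0.10 at 5 FPKM, from -0.21), complex I assembly (0.14 in counts, from 0.02) and the pogo-related list (0.086 without a filter and at 5 FPKM, from 0.28), each with the 5 genes included. The complex I assembly median changed sign in counts at 1 h (0.0061) and 8 h (-0.05). Any DRACH letters, in place of GGACT, occur in 100% of tested coding transcripts. Depth limits Bbs10 most, with 128 estimated counts at 1 h.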
